A study of Danio rerio with 6 samples.

Results

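ZMEL1 is a zebrafish melanoma cell line, and its transcriptome was read here on its own, from the 3 ZMEL1 libraries of the 6 libraries in the series. The line was grown from a single GFP+ skin tumor of 1 fish, so its replicates are cultures of 1 line and not separate tumors. In that fish the melanocyte-specific mitfa promoter drove human oncogenic BRAF, the fish's own mitfa was mutant (mitfa-/-), as was a further gene not reported here, and a mosaic cassette under the same promoter gave back mitfa and marked the cells with EGFP (the miniCoopR system). All 3 cultures were kept in DMSO in serum-containing medium, were below confluence when they were collected, and gave polyA RNA for sequencing. Levels are CPM, the counts of a gene for every 1000000 counts of its library, and a gene was called on at a mean of at least 10 CPM and off at a mean under 0.1 CPM. A count also grows with the length of a transcript, and lengths were not used here, so a level is compared between libraries and the order of different genes is an order of counts.

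Melanocytes (called melanophores in fish), the yellow xanthophores and the silvery iridophores are all pigment cells of the neural crest, an embryonic cell population that also gives rise to Schwann cells. The transcription factor Sox10 switches on mitfa in the crest, and Mitfa in turn switches on the enzymes that make melanin (tyrosinase, Tyrp1 and Dct) and the proteins that build and carry the melanosome. Many zebrafish genes exist as a pair of copies, named a and b, because the ancestor of the teleost fishes duplicated its whole genome. The copies of a pair have often divided or lost their sites of expression.

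The libraries held 62973267, 65959800 and 67904002 counts for replicates 1, 2 and 3, and 21178 to 21951 of the 27126 gene names had at least 1 count in a library. Against counting error alone, the chi-square per degree of freedom between any pair of libraries was 202 to 285, so the replicates differed by far more than counting error. Pearson's r of log2 CPM across genes was 0.974 to 0.983 between libraries, over genes that are not independent replicates. Replicate 3 stood apart in its interferon-response genes, which are described last, and 1 of the 20 most abundant gene names depended on it. The fish's own braf had 6.83, 10.9 and 7.54 CPM, and the human transgene has no row in the table. Counts of mitfa can come from the mutant gene and from the rescue cassette, and the table does not separate them, so these levels do not check the genotype.

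Of the 27126 names, 8653 (31.9%) were on, 9877 (36.4%) were off and 8596 lay between. The genes that were on held 97.9% of the counts. Among the names that were off, 3780 had no count in any library, and a count of 0 allows up to 3 counts, or 0.0442 to 0.0476 CPM, in a library (counting error only). The other 6097 had a few counts. The 467 names of highest mean CPM reached 50% of all counts, and 133 names had a mean of at least 1000 CPM. The genes nearest to the upper threshold were ppp1r37 and wrap53 above it (both with a mean of 10.0 CPM) and cables1 below it (9.999 CPM), so the call of such genes rests on a difference far smaller than their spread. At the lower threshold neto2b, with 4, 3 and 13 counts, lay just above 0.1 CPM and pnp4b, with 3, 3 and 14 counts, just below it.

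The genes of highest count belonged to protein synthesis, protein folding, mitochondrial respiration and the cytoskeleton. The translation elongation factor eef1a1l1 had the highest count, at 20017, 19466 and 15034 CPM in replicates 1, 2 and 3, and the elongation factor eef2b followed at 9146, 10586 and 7761 CPM. In both genes replicate 3 was the lowest, and the highest library was under 1.5 times the lowest. The chaperones hsp90ab1 (8309.7 ± 1375 CPM, SD, n = 3) and hspa8 (5332 ± 764 CPM) and the beta-actin gene actb2 (4700.2 ± 1001 CPM) were also lowest in replicate 3. The ribosomal protein genes rpl7, rplp0, rpsa, rpl30, rps18, rplp1, rpl15 and rpl7a were among the 20 names of highest mean. Taken as a class, 89 names that start with rpl or rps, 87 of them on, held 16.8%, 12.01% and 13.9% of the 3 libraries. This class goes by name only, so it can take genes that are not ribosomal proteins and misses clone names. The 13 genes of the mitochondrial genome held 3.56%, 3.37% and 2.67%, and 3 of them were among the 20: mt-co1 (8760.4 ± 1219 CPM) and mt-co2 (5753 ± 1663 CPM), subunits of cytochrome c oxidase, and mt-atp6 (4589.9 ± 1329 CPM), a subunit of the ATP synthase.

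The gene of highest count outside these classes was fabp3, a carrier of fatty acids in the cytoplasm, at 6182, 2604 and 5364 CPM. Replicate 2 was low and the highest library was 2.37 times the lowest. The name si:dkey-151g10.6, which RefSeq lists as a synonym of the ribosomal protein gene rpl41, varied in the same order (5028, 2447 and 3833 CPM). The last of the 20, si:dkeyp-1h4.9, had 636 and 320.4 CPM in replicates 1 and 2 and 8389 CPM in replicate 3. Without replicate 3 its mean was 478 CPM and its rank 322, whereas the other 19 names stayed the 19 of highest mean. The 10 genes of highest mean held 9.09%, 8.30% and 7.46% of the libraries (mean 8.28% ± 0.816, SD, n = 3).

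**Figure D1:**
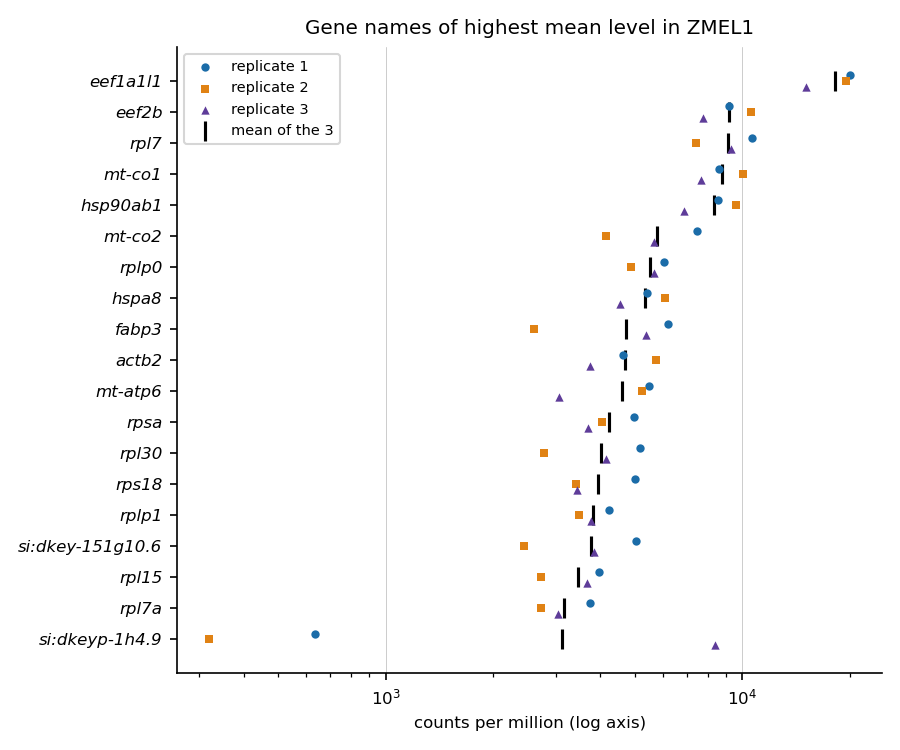
Levels in CPM (log axis) of 19 of the 20 gene names of highest mean level, with 1 symbol for each ZMEL1 library and a black bar for the mean of the 3. For 18 of them the 3 libraries lie close together, from 1.21 times (rplp1) to 2.37 times (fabp3) between lowest and highest, and si:dkeyp-1h4.9 reaches 8389 CPM in replicate 3 alone.

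The regulators of the melanophore were on at a high level, and the genes of melanin synthesis were not. Of the 5 marker genes, mitfa and sox10 were on, and tyr, dct and pmela lay between the thresholds. The level of mitfa, the master transcription factor of the melanocyte, was 502, 455 and 609.7 CPM (mean 522 ± 79.4, SD, n = 3), and that of sox10 was 408, 458 and 395 CPM (421 ± 33.1). Both therefore spread little, and replicate 3 was the highest for mitfa and the lowest for sox10. Counts of tyr, which encodes tyrosinase, the rate-limiting enzyme of melanin synthesis, came to 5.92, 7.78 and 3.40 CPM. For dct, the dopachrome tautomerase, the levels were 1.84, 3.15 and 9.03 CPM, and for pmela, which forms the fibrils of the melanosome, 5.21, 6.22 and 2.14 CPM. Replicate 3 was the lowest of the 3 for tyr and pmela and the highest for dct, by 4.90 times over replicate 1. So 2 of the 5 markers were on at the threshold used, and the other 3 were detected in every library below it. Counts of mitfa can come from the rescue cassette, so of the 2 only sox10 is a check of the label apart from the cassette.

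Of the 24 melanophore genes listed, 20 had a row, of which 8 (40%) were on, 10 between and 2 (10%) off, beside 31.9% on and 36.4% off over all names. Besides mitfa and sox10, the genes that were on were tspan36, a tetraspanin of pigment cells (343 CPM), mlpha, the melanophilin that tethers melanosomes to their motor (285 CPM), trpm1b, a cation channel (126 CPM), kita, the receptor of the Kit ligand (99.4 CPM), myo5aa, the myosin motor of the melanosome (65.0 CPM), and rab32a, a small GTPase of melanosome biogenesis (62.5 CPM). None of these 8 was under 30 CPM in any library. The widest ranges among them were those of trpm1b (118, 75.5 and 186 CPM) and myo5aa (34.0, 81.2 and 79.7 CPM), and the libraries that were low differed, replicate 2 for the first and replicate 1 for the second.

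A group of 7 genes lay at a mean of 3.69 to 5.70 CPM: tyr, dct and pmela, with tyrp1b, a melanin synthesis enzyme (5.63 CPM), oca2, a melanosome membrane protein (4.88 CPM), mc1r, the melanocortin receptor (4.04 CPM), and gpnmb, a melanosome glycoprotein (3.69 CPM). The order within this group was not stable, since the highest library was over 2 times the lowest for all of them except mc1r. Lower still were slc24a5, an ion exchanger of the melanosome (0.317 CPM), gpr143 (0.300 CPM) and pmelb (0.133 CPM). The 2 genes that were off were tyrp1a, with 2, 5 and 6 counts, and slc45a2, a melanosome transporter, with 3, 3 and 6 counts. No melanophore gene had 0 counts in all libraries, and the number on stayed 8 with each library left out.

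**Figure D2:**
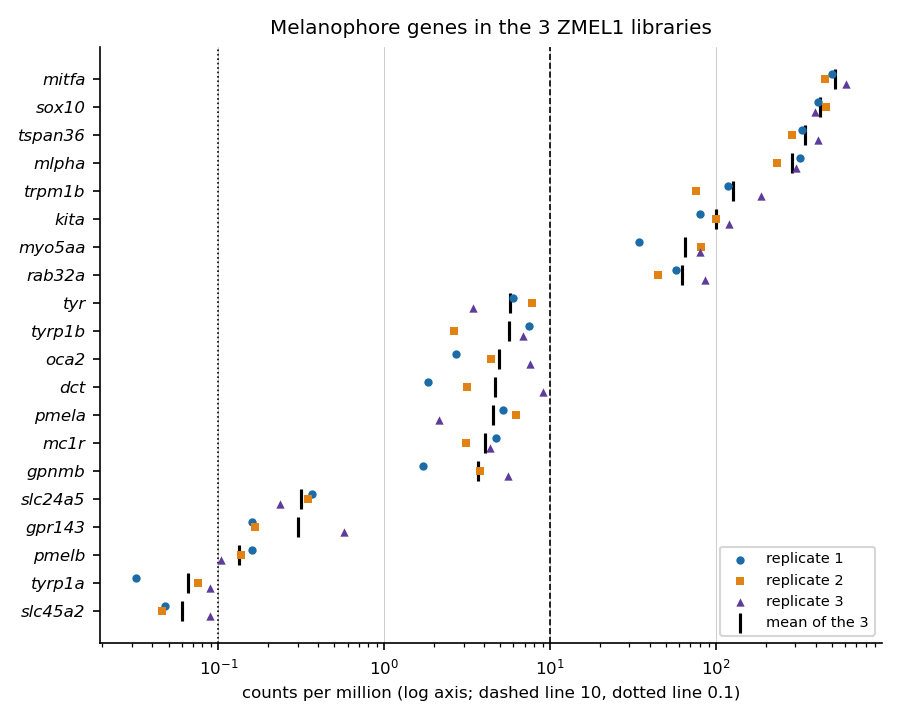
Levels in CPM (log axis) of the 20 melanophore genes with a row, in order of their mean, with 1 symbol for each ZMEL1 library. A dashed line marks 10 CPM and a dotted line 0.1 CPM: the 8 genes on the right lie above 30 CPM in every library, and a gap separates them from tyr and the 11 genes under it.

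In the xanthophore list 5 of 15 genes (33.3%) were on and 4 (26.7%) were off, shares near those of all names (31.9% on and 36.4% off), so the count says nothing particular of this list. Those on were mycbp2 (227 CPM), the transcription factor sox5 (133 CPM), gch2 (22.9 CPM) and spra (21.2 CPM), which act in pteridine synthesis, and scarb1 (22.7 CPM), which takes up carotenoids. The level of gch2 was 16.04, 10.3 and 42.5 CPM, with replicate 3 far above the others, whereas scarb1 was even (24.2, 22.5 and 21.5 CPM). The receptor gene csf1ra, which xanthophores need to develop, had 5.03 CPM, and its copy csf1rb was off with 3 to 7 counts in a library. The transcription factor pax7a had 3.66 CPM and pax7b was off.

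In the iridophore list 9 of 13 genes (69.2%) were on, beside 31.9% of all names. Of these, paics (424 CPM), atic (190.0 CPM) and gart (67.5 CPM) are enzymes of purine synthesis, which every dividing cell uses, and impdh1b (181 CPM) acts in guanine synthesis. The endothelin receptor ednrba, named ednrb1a in the table, was on at 415, 240.2 and 490.1 CPM. The receptor kinase ltk, which directs cells to the iridophore fate, had 23.1, 71.5 and 33.9 CPM, and the homeobox gene alx4a 15.96, 38.2 and 50.4 CPM. Thus both were on in all 3 libraries, and each ranged over 3 times. The purine phosphorylase pnp4a, the gene most used to mark iridophores, was under 1 CPM, at 0.238, 0.409 and 0.236 CPM. The forkhead gene foxd3, held by the iridophore and the crest lists, had no count in any library.

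In the neural crest list 9 of 32 genes with a row (28.1%) were on, 13 lay between and 10 (31.2%) were off, again near the 31.9% and 36.4% of all names. The transcription factors of the AP-2 family led it next to sox10, with tfap2a at 311, 345 and 244 CPM, tfap2c at 157, 186 and 225 CPM and tfap2e at 42.1, 36.7 and 80.5 CPM. The homeobox gene dlx2a (167 CPM), inka1a (106 CPM, named fam212aa in the table), pax3a (80.9 CPM), snai1a (40.3 CPM) and snai2 (11.6 CPM) were also on. The last of these was on by its mean only, at 17.9, 11.9 and 5.07 CPM, and was not on without replicate 1. The 3 genes with no count in any library were foxd3, pax3b and sox8a. The other genes that were off, among them tfap2b, dlx2b, zic2a, zic2b, ngfrb and snai1b, had at most 8 counts in a library. The Sox9 genes, which act in cartilage and crest, were low (sox9a 1.32 CPM, sox9b 0.533 CPM), as were twist1a (1.87 CPM) and twist1b (0.195 CPM).

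Of 18 genes of Schwann cells and other glia, 5 (27.8%) were on and 6 (33.3%) were off, which is also near the shares over all names. The fatty acid carrier fabp7a, known from radial glia and Schwann cell precursors, had 2830.3, 1644 and 2339 CPM, the highest counts of the list, and replicate 2 was the lowest as it was for fabp3. The peripheral myelin gene pmp22a (227 CPM), cnp (53.0 CPM), the transcription factor sox2 (46.5 CPM) and mbpb (18.8 CPM) were on too, and the highest library of each was under 1.5 times the lowest. By contrast the myelin gene mpz had 4, 4 and 7 counts, s100b 2, 2 and 6 counts and olig2 1, 1 and 3 counts, while plp1b and olig1 had none. The astroglial gene gfap was at 0.546 CPM.

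Genes that define other cell types were mostly low or off. Over the 18 cell type lists other than the melanophore list, 344 genes with a row that the melanophore list does not hold were counted, of which 39 were on and 170 were off. Over all names 31.9% were on and 36.4% were off. The 18 lists include those of xanthophores, iridophores, neural crest and glia described above, which held most of the 39. No gene was on in the lists for skeletal and heart muscle (25 genes with a row, 13 off), leukocytes (25, 15 off), cartilage and bone (15, 9 off), liver (17, 13 off), pancreas (16, 12 off), intestine (9, 4 off), kidney (15, 8 off) or eye and lens (20, 12 off). The share off in these lists ran from 44.4% (intestine) to 76.5% (liver). In the leukocyte list, ptprc, which all white blood cells carry, had 0.358 CPM, and the macrophage gene mpeg1.1 and the neutrophil gene lyz were off. The summed level of that list was 11.5, 14.6 and 12.7 CPM. In the muscle list the summed level was 8.38 to 10.4 CPM, in the pancreas list 1.62 to 2.42 CPM and in the liver list 2.62 to 3.52 CPM.

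The remaining lists had 1 to 4 genes on, from 4.55% (endothelium) to 16.7% (fibroblast), beside 31.9% of all names. Their share off ran from 25% (fibroblast) to 78.6% (red blood cell), beside 36.4% of all names, and only the fibroblast list was under that share. In the red blood cell list urod, an enzyme of heme synthesis that most cells use, was on (21.8 CPM), while the adult globin genes hbaa1 and hbba1 were off. In the endothelial list only vwf, the von Willebrand factor gene, was on, at 25.04, 39.3 and 96.4 CPM, and the defining genes cdh5, kdrl and tie1 were off. The neuron list had 2 of 25 genes on, sypa (47.1 CPM) and nefma (18.3 CPM), a synaptic vesicle protein and a neurofilament, and 12 off. The germ cell list had 1 of 17 on, nanos1 (161 CPM), and ddx4 and nanos3 were off.

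The epithelial list had 3 of 24 genes on, among them 2 keratins of simple epithelia at high levels. The level of krt8 was 2660.0, 2586 and 2072 CPM, and that of its partner krt18 was 580.2, 366 and 330.1 CPM. The epithelial transcription factor grhl2b was on at 13.04 CPM, the cadherin cdh1 had 9.93 CPM, and epcam, esrp1 and cldne were off. Between the thresholds lay also krt4 (6.85 CPM), grhl1 (6.50 CPM), krt5 (5.35 CPM) and cldni (4.54 CPM), and cdh1 was on when replicate 1 or replicate 2 was left out. In the fibroblast list 4 of 24 genes were on: sparc, a matrix protein, at 269, 186 and 499 CPM, postnb (71.0 CPM), thy1 (16.4 CPM) and dcn (15.6 CPM). The collagen gene col1a2 had 3.24 CPM and pdgfra 2.90 CPM, and lum and tcf21 were off. In bulk RNA, a few cells of another type and a low level in every cell cannot be told apart.

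**Figure D3:**
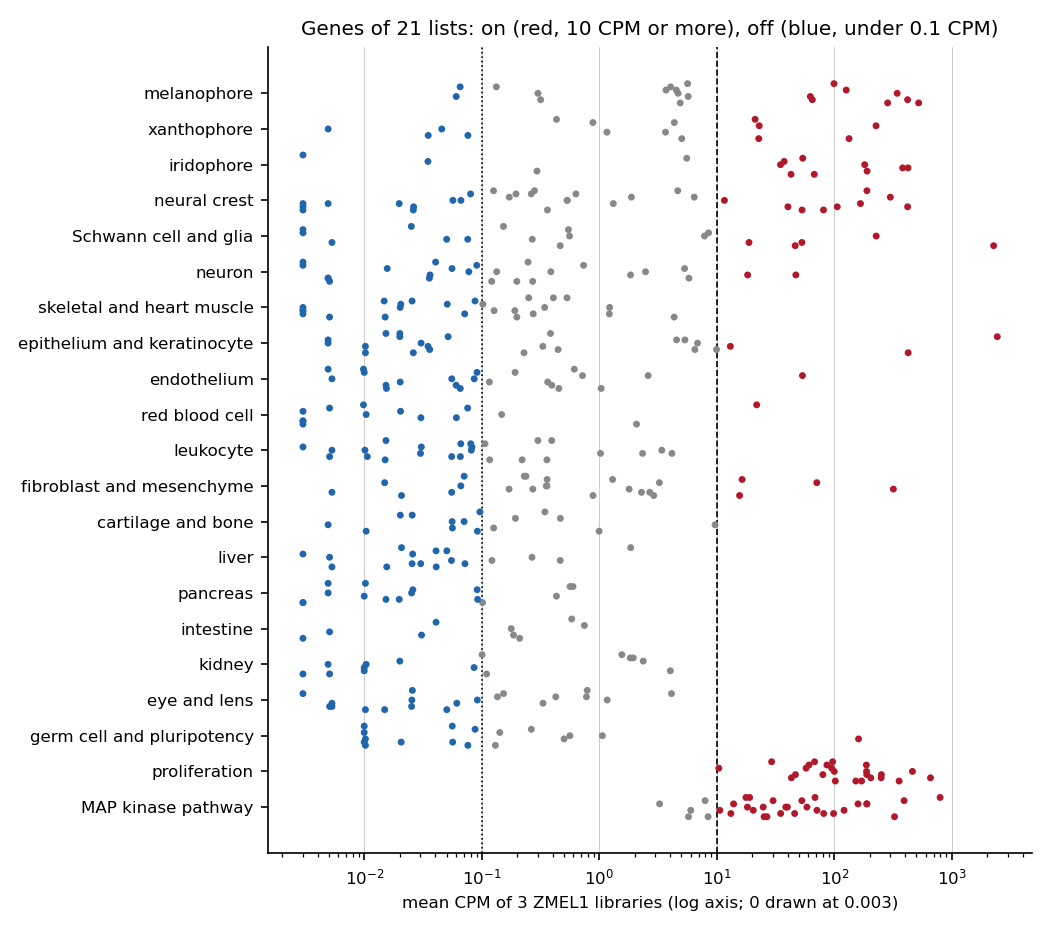
Mean CPM over the 3 ZMEL1 libraries (log axis) of each gene with a row in 21 lists, 1 point for each gene, with 0 drawn at 0.003 CPM. Red points are on (10 CPM or more), blue points off (under 0.1 CPM) and gray points between. All 24 proliferation genes and 28 of 33 MAP kinase genes are red, beside 31.9% on over all names. The lists of muscle, leukocyte, liver, pancreas, intestine, kidney, eye, and cartilage and bone hold no red point.

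All 24 proliferation genes were on, beside 31.9% of all names. They ran from the cyclin ccnb2 (10.4 CPM) to the replication clamp pcna (734, 622 and 620.4 CPM). The proliferation marker mki67 had 279, 475 and 314 CPM, the ribonucleotide reductase subunit rrm1 459, 584 and 344 CPM, and the replicative helicase subunits mcm2 to mcm7 had means of 57.5 to 250.4 CPM. Replicate 2 was the highest for mki67 and rrm1, and the summed level of the list was 4002, 4438 and 3401 CPM. Only tyms, the thymidylate synthase gene, ranged over 2 times in this list (89.4, 114 and 56.0 CPM).

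The MAP kinase pathway carries the signal of BRAF through MEK and ERK to the nucleus, and its target genes include its own inhibitors. Of 33 genes with a row 28 (84.8%) were on, beside 31.9% of all names, and none was off. Among those of highest count were genes that ERK switches on and that restrain the pathway: the ERK phosphatases dusp6 (811, 918 and 656 CPM) and dusp4 (261, 307 and 408 CPM), and spry4 (308, 439.6 and 430.0 CPM) and spry2 (159, 178 and 140.5 CPM), which act on receptor signaling. The ERK-responsive transcription factors etv5b (189 ± 28.4 CPM, SD, n = 3), etv4 (121 ± 13.9 CPM) and etv5a (39.8 ± 5.30 CPM) and the cyclin ccnd1 (189 ± 28.1 CPM) were on in every library with less than 1.5 times between lowest and highest.

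Most kinases and GTPases of the cascade were on as well. Among the Raf genes araf had 81.2 CPM and braf 8.43 CPM. Of the MEK genes map2k2a had 71.2 CPM, map2k2b 38.6 CPM and map2k1 13.2 CPM, and the ERK gene mapk3 had 52.9 CPM. The GTPase genes nras (26.7 CPM) and kras (17.7 CPM) were on, and hrasa (3.26 CPM) and hrasb (7.95 CPM) were not. The early response gene egr1 stood apart with 40.0, 64.5 and 191 CPM, and fosab (2.35, 4.25 and 10.6 CPM) and fosl1a (12.7, 31.3 and 46.4 CPM) were likewise lowest in replicate 1 and highest in replicate 3. All 3 encode transcription factors that respond early to growth signals.

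Gene copies were compared within pairs, by taking every 2 names that differ only in a final a or b. There were 2227 such pairs, and 1252 had at least 1 copy on. Both copies were on in 584 pairs, 1 copy was on and the other between in 511, and 1 copy was on and the other off in 157. In the last group the copy that was on was a in 85 pairs and b in 72. One copy gave at least 90% of the counts of the pair in 522 of the 1252 pairs (41.7%). The share of copy a ranged by a median of 3.48 percentage points over the 3 libraries, and by 6.58 points in the 730 pairs in which neither copy reached 90%, where the share has more room to move. In 66 pairs the leading copy was not the same in every library.

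Counts of the copies were tested for any difference in a paired test (edgeR, quasi-likelihood, with the library as a block). Of 1873 pairs tested, 1472 (78.6%) had a Benjamini-Hochberg adjusted p under 0.05 and an estimated difference over 2 times. Copy a was the higher in 792 of these and copy b in 680. The call nearest to the 2-fold limit was ywhaba over ywhabb (log2 ratio of b to a -1.001), and the nearest pair that missed it was cltca over cltcb (-0.995). The ratios are not corrected for transcript length, and reads that match both copies of a near-identical pair may have been left out or assigned to 1 of them, so a copy at 0 is uncertain where the copies share most of their sequence. The rule goes by names and also takes related genes that are no fish copies, and leaving out the 54 pairs marked as such, a list that is not complete, left 1438 pairs called.

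The 12 pairs of largest difference with 1 copy at 50 CPM or more were led by fabp7a, whose copy fabp7b had 1 count in replicate 1 and none in the others (summed counts 445507 times as high, 95% counting interval 79959 to 17596600). Cytochrome c came from cycsb at 1238, 914 and 847 CPM, with no count for cycsa, so cycsb was at least 21747-fold higher (with cycsa set to 3 counts in each library). In the same way the sodium pump subunit atp1b1a (758 CPM) was at least 16594-fold higher than atp1b1b, and the galectin lgals2a (506 CPM) at least 11024-fold higher than lgals2b, both without a count. The direction was not the same along a pathway or a family. Aldolase A, an enzyme of glycolysis, was counted as aldoaa (431, 454 and 453 CPM; aldoab had 1 count in all), and aldolase C as aldocb (517, 574 and 651 CPM; aldoca had 2 counts in all).

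The other 6 of these pairs were led by igfbp1a (572 CPM), a binding protein of insulin-like growth factors, msna (468 CPM), the moesin that anchors actin to the membrane, rdh8a (698 CPM), a retinol dehydrogenase, ptrfb (397 CPM), a coat protein of caveolae, slc20a1b (502 CPM), a phosphate transporter, and txnipa (337 CPM), an inhibitor of thioredoxin. The lower copy of each had at most 7 counts in any library. All 12 pairs had an edgeR adjusted p of 8.18e-08 to 5.22e-07 (Benjamini-Hochberg over 1873 pairs). In each of the 12 the same copy led in 3 of 3 libraries. The 12 were picked from the called pairs by the size of the difference, so both follow from that choice and add no support.

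Among the lineage, proliferation and MAP kinase lists, 35 pairs had a copy on, and 30 of them (85.7%) were called, against 78.6% of all pairs tested. The pairs tested were not limited to those with a copy on, so these shares rest on unlike sets. Of the 35, 4 are related genes rather than fish copies (tfap2a and tfap2b, top2a and top2b, aurka and aurkb, coro1a and coro1b), which was judged after their values were seen. Of the 31 others 26 (83.9%) were called, 19 for copy a and 7 for copy b. In most pigment and crest pairs 1 copy held nearly all counts. Over all 1252 pairs with a copy on, 1 copy gave at least 90% of the counts in 522 (41.7%). The lists often name only 1 copy of a pair, so this and the split between a and b depend partly on how they were written. For mitf the levels of mitfb, which is known from the eye, were 0.572, 1.38 and 0.766 CPM, so that mitfa held 99.8% of the counts (575 times as high, edgeR adjusted p = 3.7e-07). Counts of mitfa can include the rescue cassette, so this ratio may not be that of the native copies. No count fell on pax3b or rab32b, so pax3a was at least 1779-fold and rab32a at least 1375-fold higher.

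The same held for other pigment and crest pairs, with kita 277 times, mlpha 197 times, ednrb1a 2091 times, dlx2a 2982 times and spra 166 times as high as the b copy. For alx4b there were 1, 0 and 6 counts, too few for a steady ratio. A lower copy with 1 count in all was that of snai1a (summed counts 7913 times as high, 95% counting interval 1419.8 to 312586). Copy b led in fewer of them: trpm1b was 490.4 times as high as trpm1a, impdh1b 32.7 times as high as impdh1a and, in the glia and fibroblast lists, mbpb 40.1 times as high as mbpa and postnb 201 times as high as postna. In pmp22 and myo5a the a copy led by 26.8 and 7.88 times, and the b copy was counted as well, at 8.51 and 8.29 CPM.

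The 5 list pairs that were not called had both copies on. They included the tight junction gene tjp1 (tjp1a 37.4 and tjp1b 43.3 CPM, edgeR adjusted p = 0.277), fam212a (fam212aa 106 and fam212ab 139 CPM, 0.165), and from the MAP kinase pathway map2k2 (map2k2a 71.2 and map2k2b 38.6 CPM, 0.00172) and spred2 (spred2a 25.3 and spred2b 46.0 CPM, 0.0104). Both map2k2 and spred2 had an adjusted p under 0.05 and a difference under 2 times. By contrast etv5b was 4.73 times as high as etv5a and mycb 2.88 times as high as myca, each in 3 of 3 libraries (edgeR adjusted p = 1.2e-05 and 0.00185).

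**Figure D4:**
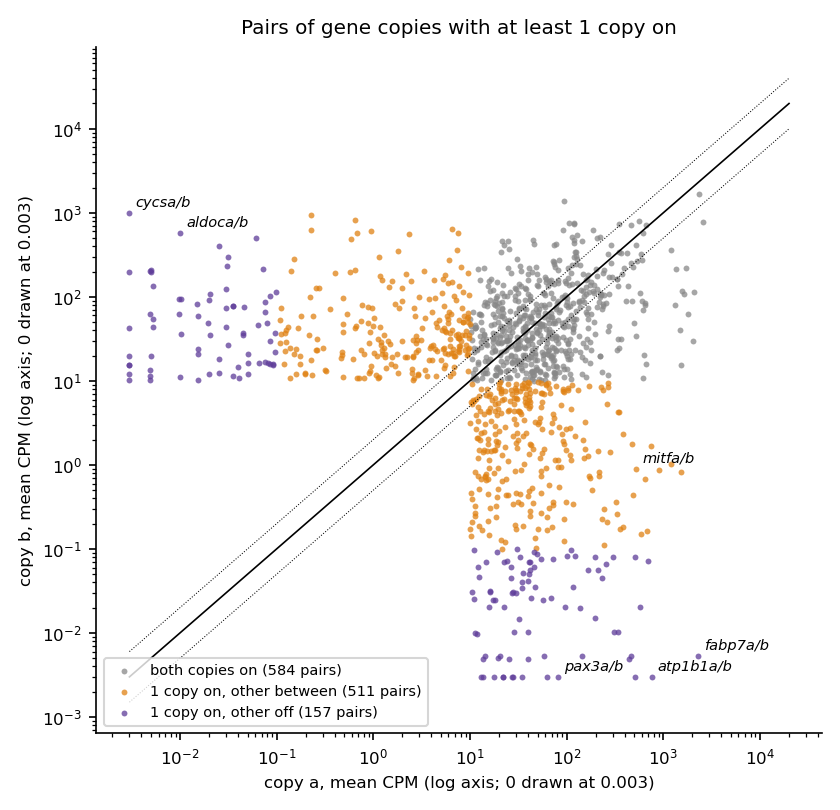
Mean CPM of copy a against copy b (both log axes, 0 drawn at 0.003 CPM) for the 1252 pairs with at least 1 copy on, with 1 point for each pair. Points on the solid line have equal counts and dotted lines mark 2 times: the 584 pairs with both copies on (gray) surround the line, and the 157 pairs with 1 copy off (purple) lie along both edges, 85 on the side of copy a and 72 on that of copy b.

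Over the genes that were on, the median spread between replicates was well above that from counting alone. The median coefficient of variation (CV, the SD over the mean of CPM) was 0.177 over 8653 genes (quartiles 0.112 and 0.258), against 0.0200 from counting alone, and 1778 genes (20.5%) had a CV under 0.1. The biological coefficient of variation that edgeR fitted to the 3 libraries was 0.299 over 15529 genes. The steadiest genes at 100 CPM or more were diexf (100.5, 100.5 and 99.3 CPM), which acts in ribosome assembly, the chaperonin subunit cct8 (910.4, 921 and 903 CPM), ndfip1, an adaptor of ubiquitin ligases, tpd52l2b, the GTPase gene rab2a (1135, 1159 and 1135 CPM), and efhd2. The CV of these 6 ran from 0.007 to 0.014.

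For 895 genes (10.3%) the highest library was over 2 times the lowest. It was replicate 1 for 89 of them, replicate 2 for 325 and replicate 3 for 481. Scaling by TMM factors, which raised the log2 levels of replicate 1 by 0.14 and lowered those of the others by 0.09 and 0.06, gave 996 genes, with 395, 202 and 399 highest in the 3 libraries. With that scaling replicate 1 led as often as replicate 3, so the direction of these moderate ranges was not stable. Over 4 times, 113 genes ranged, 94 of them with replicate 3 on top, 17 with replicate 2 and 2 with replicate 1. All 50 genes of highest CV were highest in replicate 3, and 24 of them had clone names.

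The 12 named genes of highest CV were her12, ponzr1, rsad2, ftr41, ftr11, mxe, gig2e, ftr26, irf7, pkz, mov10b.2 and birc7. Among these her12, a hairy-related repressor of the Notch pathway, had 1.84, 5.75 and 69.5 CPM, the widest range, at 37.7 times. Several others answer interferon, the signal that cells send on meeting a virus: it acts through JAK kinases and STAT factors to switch on antiviral genes. For rsad2, the antiviral enzyme viperin, the levels were 46.8, 26.3 and 428 CPM. For mxe, an antiviral GTPase, they were 41.0, 32.2 and 370.1 CPM, and for irf7, a transcription factor that amplifies the response, 39.8, 30.6 and 297 CPM. In each gene replicates 1 and 2 lay within 1.8 times of each other, and replicate 3 was over 6 times as high as either.

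A list of 29 genes of the interferon pathway was therefore written after these values were seen, and its counts are a description. In 27 of the 29 replicate 3 was the highest library, also with TMM or DESeq2 scaling, and in 22 (21 with either scaling) it was over 2 times the mean of the other 2. The median of that ratio was 3.32, against 1.00 over all 8653 genes that were on, of which 247 were over 2. Scaled by library total, replicate 3 was the highest for 2647 of these 8653 genes. The summed level of the interferon list was 4096, 3122 and 12508 CPM. The ligand ifnphi1 had 9.51, 5.44 and 12.7 CPM. The receptor subunits crfb1 (13.2, 7.69 and 22.9 CPM) and crfb2 (5.18, 5.85 and 9.28 CPM) were also highest in replicate 3, as was the kinase tyk2 (22.0, 43.4 and 53.2 CPM). The receptor subunit crfb5 (34.9, 38.8 and 35.0 CPM) and the kinase jak1 (79.5, 121 and 95.4 CPM) were the 2 genes not highest in replicate 3.

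Downstream of them, stat2, a transcription factor of the pathway, had 373, 464 and 1329 CPM. The ubiquitin-like protein gene isg15 had 277, 196 and 1473 CPM, and the RNA sensor dhx58 23.0, 33.3 and 186 CPM. Of the antigen presentation genes, b2m, the light chain of class I molecules, had 1162, 562 and 2368 CPM, the class I gene mhc1uba 991, 695 and 2798 CPM, and the peptide transporter tap1 14.8, 23.2 and 35.2 CPM. Class I genes are a family of similar sequences, so the split of reads among mhc1uba, mhc1zba and their relatives is uncertain.

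Of 60 names of the fintrim family (ftr), fish proteins of which many answer viruses, 13 were on and 12 of these were highest in replicate 3. Of all 8653 genes on, 2647 were. The fintrim family summed to 213, 207 and 1062 CPM. The summed level of the leukocyte list was 11.5, 14.6 and 12.7 CPM in the same libraries. Without the interferon list the median CV was 0.176, and without that list and the ftr and gig2 names 858 genes ranged over 2 times. The names left out are few beside the 8653 genes on, so neither value could move far. What set replicate 3 apart was not tested.

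**Figure D5:**
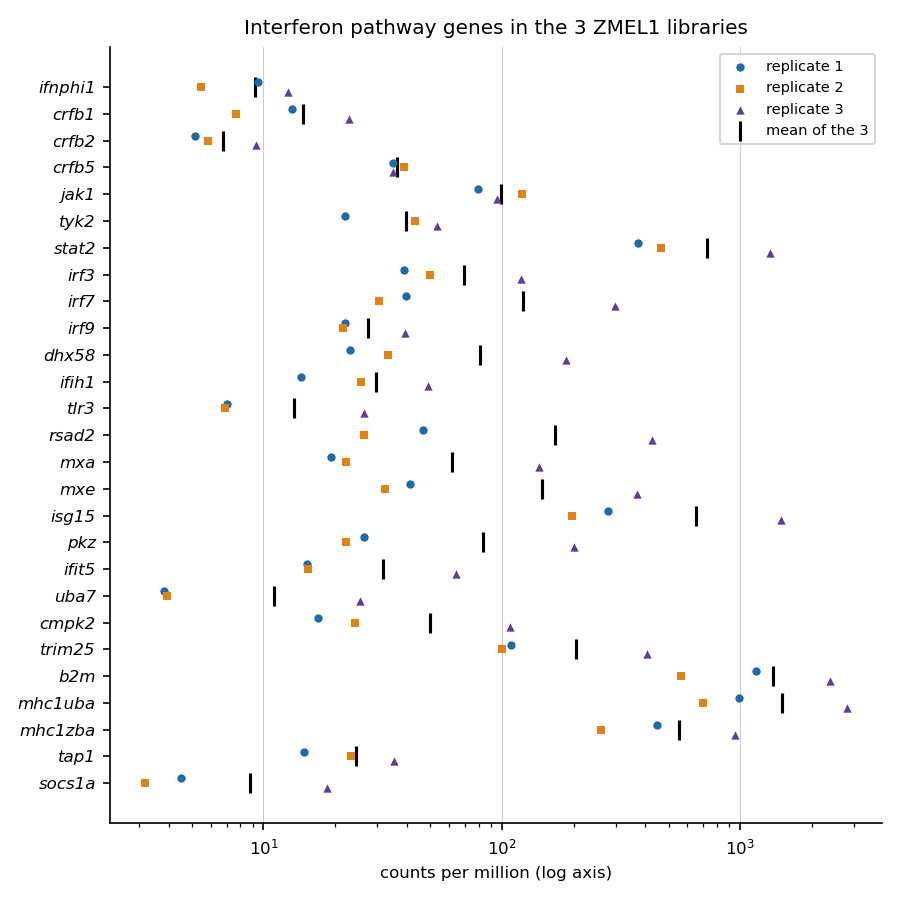
Levels in CPM (log axis) of 27 of the 29 interferon pathway genes, chosen after the values were seen, with 1 symbol for each ZMEL1 library and a black bar for the mean of the 3. Replicate 3 is the highest in 25 of the 27 rows drawn, for rsad2 at 428 CPM against 46.8 and 26.3 CPM, and crfb5 and jak1 are the exceptions.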

How the data were processed

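RNA of 3 ZMEL1 cultures was sequenced. Per the study's methods, TopHat2 placed the reads on the Zv9 genome, and HTSeq-count then tallied them by Ensembl gene. The deposited values are these raw counts, whole numbers by gene name and library that the authors had not normalized. The counting mode and the strand setting are not given in the sources used here, so overlapping genes on opposite strands cannot be told apart. The study's text gives differing read lengths and depths, so depth was taken from the table. The table has 27126 names, of which 17 were changed to dates by a spreadsheet (0.0830% to 0.0943% of a library) and were kept in the totals. The ZMELR1 columns were not used.

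CPM were counts over library totals, computed with Python 3.11.15 and pandas 2.3.3. Copies were compared in R 4.3.3 with the quasi-likelihood test of edgeR 4.0.16, with the library as a block and at least 10 counts in every library for 1 copy. A test per coding length had been planned, but no lengths were used here, so the version without length is given and could not be set beside a corrected one. DESeq2 1.42.0 and limma 3.58.1 (log2 of CPM plus 0.5) were alternatives. The tests were also run on simulated data with a fixed spread and moderate differences, a setting unlike pairs with a copy near 0. P-values test for any difference between the copies, set against the spread of that difference between these 3 cultures. The limit of 2 times was applied to the estimate afterwards. The smallest counts carry counting error.

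The members and the 21 gene lists were chosen with earlier results of these data known. Of 438 genes listed 421 had a row, 30 of them under another spelling or an older name, by the RefSeq table of GRCz12tu where it had one. Genes named are the 5 markers, the 20 of highest mean CPM, up to 8 of each list and members that were off, the 12 called pairs of largest difference with a copy at 50 CPM or more, every list pair with a copy on, the 12 genes of highest CV and the 6 of lowest at 100 CPM or more, without clone names except in the 20. The interferon, fintrim and Hox genes and further single genes were chosen after their values were seen. Some genes that the rule takes are not reported here.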

Additional observations from a re-analysis of the deposited data

How the results depend on the processing

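Of 60 values under other settings, 54 stayed within 1.5 times of the value given (or, for the share of the 10 highest genes, within 1 SD) and 6 did not. Only 116 genes ranged over 2 times when a mean of 100 CPM was asked for (895 at 10 CPM). With the threshold met in every library, 102 pairs had only 1 copy on (157 by the mean). Leaving out replicate 1, 2 or 3 gave 526, 450 and 347 genes over 2 times and a median CV of 0.151, 0.115 and 0.166. For a given gene the range over 2 libraries is never wider than over all 3. That holds for each of these sets, and why they differ from each other was not tested. Leaving out a replicate also gave 8551 to 8802 genes on, 9787 to 10045 off, and 8 melanophore genes on. In the other lists 39 to 40 genes were on, and 149 to 158 pairs had only 1 copy on. The share of the 10 highest genes was 7.95% to 8.79%, and 1423 to 1489 pairs were called. Among the 421 list genes, 9 to 12 changed their call when a library was left out, and none did with TMM or DESeq2 scaling. DESeq2 called 1462 pairs, limma 1341, and edgeR without a filter 1569. The length correction was not run. No paired analysis was possible because libraries of 1 line only were used and no groups of samples were compared (the copies of a pair were compared within each library). Depth limits genes near 0.1 CPM, where a library holds only a few counts.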

Other observations

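The Hox genes, which tell cells their place along the body axis and lie in clusters in that order, were looked at after the other results and are given as values. Of 48 Hox names with a row 13 were on and 15 off, shares near the 31.9% on and 36.4% off of all names. In groups 9 to 13, which act at the tail end of the body, 11 of 23 were on, with a summed level of 533, 461 and 627 CPM. In groups 1 to 4, which act at the head end, 2 of 13 were on (132, 128 and 118 CPM summed), and in groups 5 to 8 none of 12 was on (11.6, 14.0 and 15.7 CPM summed).

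By cluster, 7 of 15 hoxc genes were on, 4 of 11 hoxa genes and 2 of 7 hoxd genes, and none of 15 hoxb genes, of which 13 were off. The highest were hoxc11a (126, 124 and 103 CPM), hoxc12a (84.7, 86.3 and 151 CPM), hoxc3a (101, 91.9 and 88.1 CPM) and hoxc13a (76.0, 58.4 and 84.2 CPM). So the counts fell mostly on the hoxc cluster, and all 3 libraries showed it.

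A clone name chosen after its values were seen, si:dkey-238c7.13, resembled si:dkeyp-1h4.9, with 616, 232 and 7207 CPM, and its mean without replicate 3 was 424 CPM.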
